A study of Mus musculus with 3 samples.

Results

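The interferon-stimulated antiviral genes described here are 52 mouse genes, listed by symbol for their known function, with the guanylate-binding proteins and the IRF and STAT genes left out. All 52 symbols were found, each under a single gene identifier, among 55536 annotated genes. Of these, 51 are annotated as protein-coding and Mx2 as a polymorphic pseudogene. They were measured in 1 group of 3 libraries (replicates 1, 2 and 3) of bone-marrow-derived macrophages (BMDM), which are primary macrophages grown from marrow, here of C57BL/6J mice. The cells had received Lipid A, the part of bacterial lipopolysaccharide that Toll-like receptor 4 recognises, at 100 ng/ml for 30 min. RNA from the cytosol was sequenced as total RNA after ribosomal RNA had been depleted. No further genotype or agent is given for the group, and all 3 libraries carry the same donor record, so that p-values speak only of how these samples differ, and that spread may be technical. Unstimulated cells and nuclear RNA were not analysed here. Every value is therefore a level at a single time, and no gene is called induced.

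Type I interferon is secreted by cells that sense microbial nucleic acid or lipopolysaccharide. It binds the receptor Ifnar1/Ifnar2, whose kinases activate transcription factors that bind the interferon-stimulated response element, a repeat of GAAA in gene promoters. The genes switched on in this way encode sensors of foreign RNA and DNA, enzymes that degrade or modify viral RNA, proteins that block viral entry and release, and feedback inhibitors. Macrophages are known to keep a basal level of many of them. Among other routes, Lipid A can reach them through interferon beta that the stimulated cells make first.

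The interferon-stimulated response element was searched for as its core, GAAA followed by any 2 bases and again GAAA, on both strands, in windows of 250 bases before to 50 bases after each gene start in the RefSeq promoter table (GRCm38.p6). A window was given for 40 of the 52 genes, and 21 of these, 52.5%, held the core, against 3.99% of all 27025 genes of the table. At least 2 cores lay in 10 of the 40 genes, against 0.266% of all genes. The gamma-activated site core, TTC followed by any 3 bases and GAA, was present in 9 of the 40 genes, 22.5%, against 9.55% of all genes. The kappaB core, GGGA followed by any base and TTTCC, was found in 0 of the 40 genes, against 0.466% of all genes. In Ifitm3 and Bst2 a gamma-activated site core overlapped a response element core. The stretches below are those of the 7 genes with at least 2 response element cores before the start in a stretch outside the GENCODE gene, a choice made after the matches were seen. They are shown because the spacing of the cores differs among them. Capitals mark the bases of the cores, the free positions included, and each sequence reads 5′ to 3′ along the strand of its gene.
Isg15 (chr4:156200860-156200911, minus strand): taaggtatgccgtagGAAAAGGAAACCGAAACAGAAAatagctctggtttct
Ifit1 (chr19:34640770-34640828, plus strand): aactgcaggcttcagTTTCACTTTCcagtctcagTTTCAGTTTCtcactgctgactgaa
Ifit3 (chr19:34583358-34583431, plus strand): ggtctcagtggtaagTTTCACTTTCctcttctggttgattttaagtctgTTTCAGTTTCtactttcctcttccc
Ifit3b (chr19:34607754-34607827, plus strand): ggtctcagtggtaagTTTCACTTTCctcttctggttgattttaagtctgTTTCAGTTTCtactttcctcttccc
Oas1a (chr5:120907526-120907560, minus strand): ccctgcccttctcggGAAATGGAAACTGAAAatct
Oas1g (chr5:120887614-120887646, minus strand): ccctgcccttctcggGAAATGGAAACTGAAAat
Bst2 (chr8:71537572-71537617, minus strand): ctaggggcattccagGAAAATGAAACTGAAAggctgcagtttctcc
In Isg15 the run of capitals holds 3 overlapping cores, and in Oas1a, Oas1g and Bst2 it holds 2. In the printed Ifit genes the cores read on the other strand, as TTTC, any 2 bases and TTTC, and stand apart. Of the Ifit genes not printed, Ifit2 held 0 cores in its 2 windows and Ifit1bl1 held 1. The Ifit3 and Ifit3b stretches are identical, and over 218 aligned bases before their starts these paralogs share 99.1% of letters. Oas1a and Oas1g share 86.9% of 244 aligned bases. A match describes the letters only and shows no binding in these cells.

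**Figure D1:**
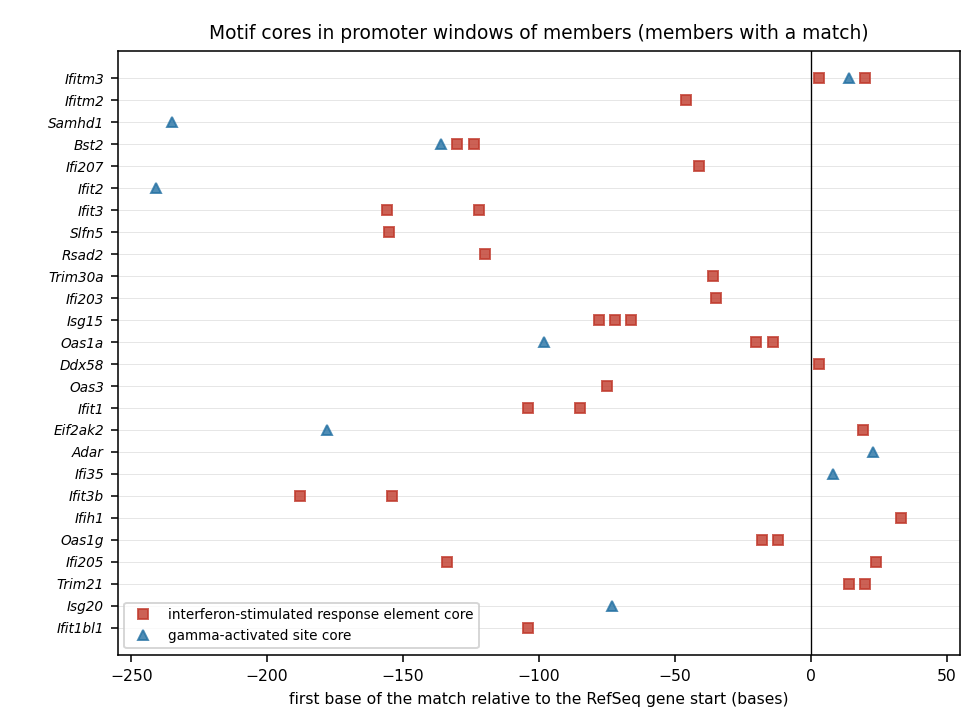
Position of each motif core relative to the RefSeq gene start (x axis, bases) in the promoter windows of members with a match (y axis, ordered by mean TPM from the highest), with squares for the interferon-stimulated response element core and triangles for the gamma-activated site core. Isg15 holds 3 response element cores, starting at positions -78, -72 and -66.

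All 52 genes were present in the cytosol of these macrophages, from 1.99 ± 0.639 TPM for Ifit1bl1 to 340.2 ± 138 TPM for Ifitm3 (TPM, transcripts per 1000000, a level corrected for length; mean ± SD, n = 3 libraries here and below). The list stood high among protein-coding genes. It was chosen with earlier results of these data known, so the shares that follow only describe it. Every one of the 52 reached 1 TPM on average, against 42.7% of the 22015 nuclear protein-coding genes, and 39 reached 10 TPM, against 18.0%. At 50 TPM or more there were 16, against 3.67%, and at 100 TPM or more 8, against 1.91%. In each library all 52 were at 1 TPM or more. The median member had 23.9 ± 6.18 TPM, against 7.77 ± 1.92 TPM for the 9403 nuclear protein-coding genes at 1 TPM or more. Together the 52 genes took 1.01%, 0.985% and 0.789% of all gene counts in replicates 1, 2 and 3. The 95% Wilson intervals were 1.007 to 1.015%, 0.982 to 0.987% and 0.786 to 0.792%, and cover counting error only.

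In the plot of levels by library, replicate 2 gave the highest TPM for 45 of the 52 genes. The share over all genes was not taken, so this count is not read as a trait of the members. TPM is a share of a library, and nuclear protein-coding genes held 22.3%, 34.4% and 24.3% of all TPM in replicates 1, 2 and 3. Differences between libraries are therefore given below as CPM, counts per 1000000 scaled by edgeR's TMM factors, which are not corrected for length and are compared only within a gene. In the order of mean TPM, neighbours overlapped over the libraries at 48 of 51 places. The 3 steps without overlap lay below Lgals3bp, below Rsad2 and below Oasl1.

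**Figure D2:**
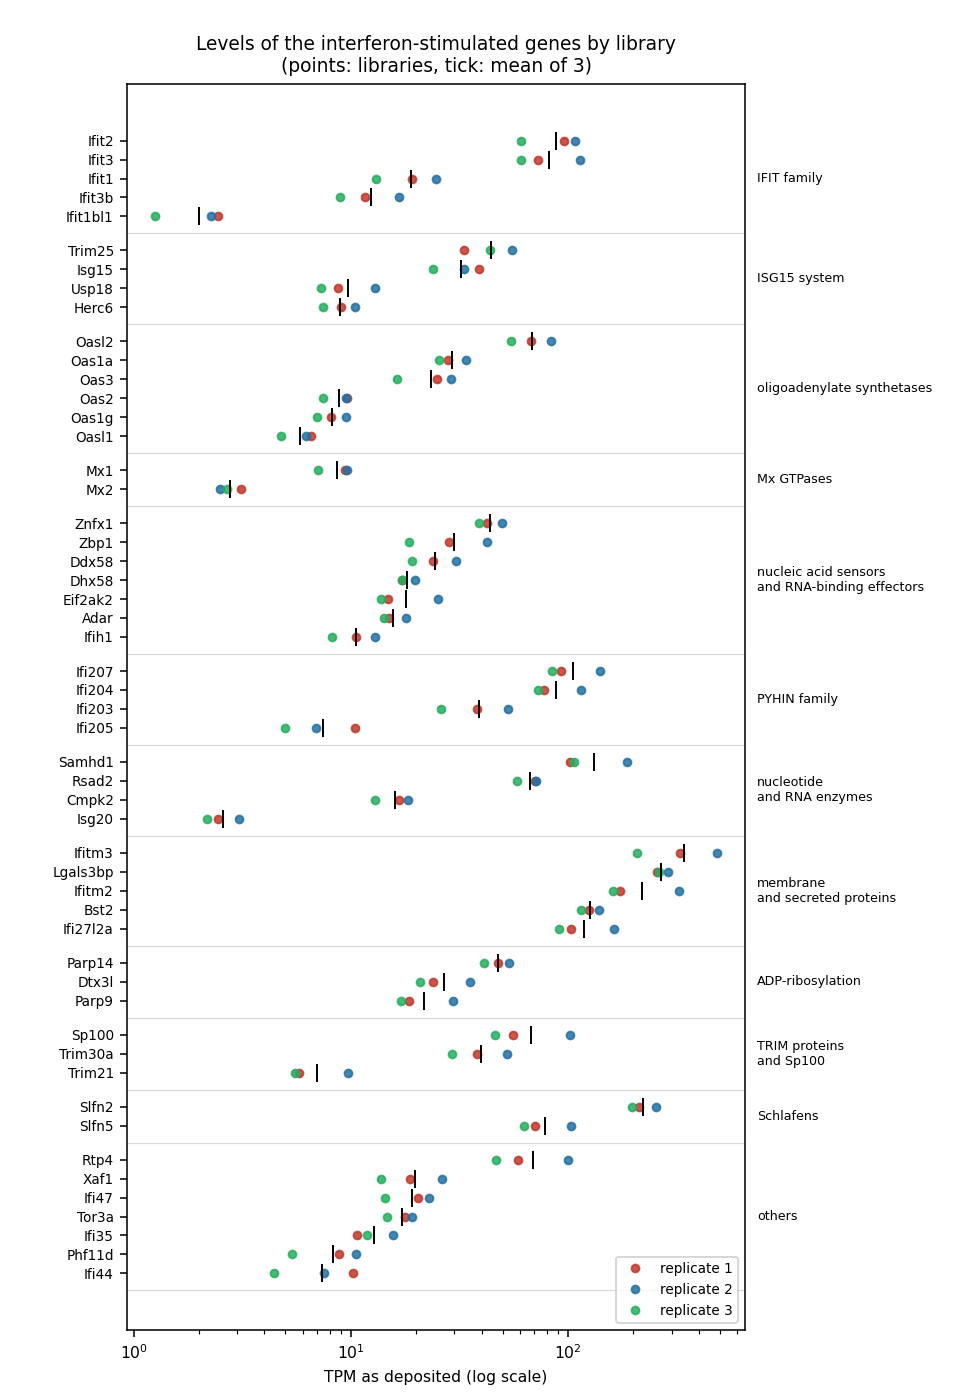
TPM as deposited (x axis, log scale) of each of the 52 genes (y axis, grouped by role), with a point for each of 3 libraries and a tick at their mean. Ifitm3 stands highest at 208 to 484 TPM and Ifit1bl1 lowest at 1.26 to 2.45 TPM.

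The membrane and secreted proteins were the most abundant group, with a median of 220.0 TPM over 5 genes. Ifitm3, whose protein sits in endosomal membranes and blocks the fusion of entering viruses (ENSMUSG00000025492.6, mm10 chromosome 7, 141009586 to 141010770), had 329, 484 and 208 TPM in replicates 1, 2 and 3. Its relative Ifitm2 had 173, 325 and 162 TPM. Replicate 2 was the highest library for both in TPM. In CPM, Ifitm3 had 308, 293 and 179.6 and was lowest in replicate 3, 1.72-fold below replicate 1. Lgals3bp, a secreted glycoprotein that binds galectins, was the steadiest of the 5 in TPM at 257, 288 and 263, while its CPM was lowest in replicate 2 at 553, against 761 and 769 in replicates 1 and 3. Bst2, or tetherin, which holds budding virions on the cell surface and whose promoter cores are printed above, had 125, 139 and 114 TPM. Ifi27l2a, a small hydrophobic protein, had 103, 163 and 90.8 TPM.

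IFIT proteins bind viral RNA and hinder its translation, and their 5 genes lie together on chromosome 19. They covered a wide range of levels. Ifit2 had 95.4, 107 and 60.5 TPM in replicates 1, 2 and 3, and Ifit3, the partner of other IFIT proteins, 72.4, 113 and 60.6 TPM. Both were lowest in replicate 3. Ifit1, with cap-binding activity, averaged 18.9 ± 5.78 TPM. Ifit3b had 11.6, 16.6 and 8.89 TPM, although its printed promoter stretch is the same as that of Ifit3, whose mean level was 82.1 ± 27.6 TPM. The posterior SD of the Ifit3b count, the authors' measure of uncertainty from shared reads, was 1.01% of the count. Ifit1bl1 (ENSMUSG00000079339.7, chromosome 19, 34592891 to 34601956) had 2.45, 2.26 and 1.26 TPM and was the lowest of the 52 genes. All 5 genes were lowest in replicate 3 in CPM, and 4 were highest in replicate 1.

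The ISG15 system attaches and removes a ubiquitin-like protein. Isg15, the modifier itself (ENSMUSG00000035692.6, chromosome 4, 156199424 to 156200818), had 38.7, 33.4 and 23.9 TPM in replicates 1, 2 and 3. In CPM it had 42.6 in replicate 1, against 23.8 and 24.1 in replicates 2 and 3. Replicate 1 stood apart, and the other two libraries were close. Trim25, a ubiquitin ligase that activates the RNA sensor RIG-I, was the highest of the 4 at 33.3, 55.4 and 43.7 TPM. Herc6, the main ligase for ISG15 in the mouse, was the lowest at 9.01, 10.4 and 7.44 TPM. Usp18, which removes ISG15 and restrains the interferon receptor, averaged 9.66 ± 2.91 TPM.

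Oligoadenylate synthetases make short adenylate chains that switch on the nuclease RNase L. All 6 genes, which lie on chromosome 5, were highest in replicate 1 in CPM. Oasl2, a synthetase-like protein with ubiquitin-like domains, led the group with 67.3, 83.4 and 54.7 TPM in replicates 1, 2 and 3. Oas1a had 28.0, 33.9 and 25.4 TPM, and its paralog Oas1g had 8.12, 9.50 and 7.0 TPM. The posterior SD was 0.348% of the count for Oas1a and 1.34% for Oas1g, and with which genes reads were shared was not examined. Oas3 had 25.0, 28.9 and 16.4 TPM, and Oas2 averaged 8.86 ± 1.25 TPM. In CPM, Oas3 ran from 231 in replicate 1 through 178 in replicate 2 to 135 in replicate 3, a 1.72-fold range. Oasl1, known in the mouse to restrain the translation of Irf7, was the lowest at 6.58, 6.21 and 4.76 TPM.

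Mx proteins are dynamin-like GTPases that trap viral ribonucleoproteins, and most inbred mouse strains, C57BL/6 among them, carry defective alleles of both genes. Mx1 (ENSMUSG00000000386.15, chromosome 16, 97447035 to 97462907) had 9.42, 9.57 and 7.04 TPM in replicates 1, 2 and 3. Mx2, its neighbour on the same chromosome, had 3.13, 2.51 and 2.68 TPM, with 287, 411 and 332 counts. In CPM both were highest in replicate 1, at 40.3 for Mx1 and 12.7 for Mx2, and lowest in replicate 2, at 26.3 and 7.55.

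Nucleic acid sensors and RNA-binding effectors ranged from 10.5 to 43.7 TPM over 7 genes. Znfx1, a helicase that senses viral RNA, was the highest with 42.4, 49.8 and 38.9 TPM in replicates 1, 2 and 3. Zfas1, annotated on the opposite strand, overlaps it and had 10.3, 16.0 and 6.44 TPM. Where counting did not use strand, reads in the overlap of the 2 genes cannot be told apart. Ifih1, encoding MDA5, which detects long double-stranded RNA, was the lowest with 10.5, 12.9 and 8.20 TPM. The related Ddx58, encoding RIG-I, averaged 24.5 ± 5.78 TPM, and Dhx58, encoding their regulator LGP2, 18.0 ± 1.49 TPM. Zbp1, a sensor of left-handed nucleic acids that can start necroptosis, averaged 29.7 ± 12 TPM. Eif2ak2, encoding the kinase PKR, which halts translation on double-stranded RNA, averaged 17.9 ± 6.36 TPM. Adar, which edits adenosine to inosine in such RNA, averaged 15.7 ± 2.04 TPM.

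The PYHIN family, a cluster on chromosome 1 of genes whose proteins bind DNA, held both abundant and low members. Ifi207 had 93, 140.1 and 84.3 TPM in replicates 1, 2 and 3, and Ifi204, a relative of human IFI16, had 77.2, 115 and 72.5 TPM. In CPM these genes were nearly level between replicates 1 and 2, with 614 and 616 for Ifi207 and 326 and 326 for Ifi204, and lower in replicate 3 at 502 and 275. Ifi205 (ENSMUSG00000054203.7, chromosome 1, 174011998 to 174031810) had 10.5, 6.89 and 4.97 TPM. Its CPM was 34.3 in replicate 1, against 13.8 and 15.4 in replicates 2 and 3, a 2.48-fold range. Its posterior SD was 2.22% of the count, the largest of the 52 genes. Ifi203 averaged 39.0 ± 13.5 TPM and overlaps Mndal, another gene of the family, on the same strand. Mndal had 49.9, 80.7 and 36.6 TPM, and reads in the overlap cannot be told apart with certainty.

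Among the nucleotide and RNA enzymes, Samhd1 was the most abundant. It hydrolyses the nucleotides that reverse transcription needs, and had 102, 187 and 107 TPM in replicates 1, 2 and 3. In CPM the same libraries had 476, 458 and 396, and the difference was 1.2-fold. Rsad2, or viperin, makes a chain-terminating nucleotide, and its neighbour on chromosome 12, Cmpk2, supplies nucleotide precursors. They averaged 66.7 ± 7.57 and 15.9 ± 2.76 TPM, and both were highest in replicate 1 in CPM, 1.49-fold and 1.43-fold above the lowest library. Isg20, an exonuclease that degrades RNA, was the lowest of the 4 with 2.45, 3.07 and 2.18 TPM and 91, 194 and 110 counts.

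The remaining role groups held 15 genes. Parp14, an ADP-ribosyltransferase, had 47.5, 53.6 and 41.2 TPM in replicates 1, 2 and 3, and Parp9 had 18.6, 29.7 and 17 TPM. Dtx3l, the ubiquitin ligase that pairs with Parp9, averaged 26.7 ± 7.68 TPM. Parp9 and Dtx3l overlap on opposite strands, from 35938470 to 35939151 on chromosome 16. Reads in the overlap are separate only if counting used the strand, which is not given in the sources used here. Sp100, a component of nuclear bodies that restrict viral genomes, had 55.7, 102 and 46.2 TPM. Trim21, a cytosolic receptor for antibody-coated virus, had 5.78, 9.68 and 5.55 TPM, and Trim30a, a mouse inhibitor of NF-kB signalling, averaged 39.9 ± 11.6 TPM.

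Of the Schlafens, Slfn2, known in the mouse for keeping lymphocytes quiescent, had 211, 253 and 197 TPM in replicates 1, 2 and 3 and Slfn5 70.1, 103 and 62.9 TPM. Rtp4, a chaperone of membrane receptors, led the mixed group with 59.0, 100.5 and 46.4 TPM. Ifi44 (ENSMUSG00000028037.13, chromosome 3, 151730922 to 151749960) was the lowest of that group with 10.2, 7.53 and 4.42 TPM. Its CPM was 49.9 in replicate 1, against 24.4 and 19.1 in replicates 2 and 3. This 2.61-fold range was the widest of the 52 genes. Phf11d had 8.80, 10.6 and 5.37 TPM and a 1.73-fold range in CPM. Ifi35, a partner of the protein Nmi, had 10.7, 15.7 and 11.8 TPM, and its CPM was nearly equal in the 3 libraries at 24.4, 24.1 and 24.8. Xaf1, Ifi47 and Tor3a averaged between 17.2 and 19.6 TPM.

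The 3 libraries differed in most of these genes by more than counting error. A between-library test (a chi-square index of dispersion on edgeR's TMM scale, with Benjamini-Hochberg adjustment over all genes averaging at least 10 counts) called 50 of the 52, against 66.8% of the 13237 genes tested. The members have many counts, at least 132 on average, which makes small differences detectable. The share called was 72.3% of genes averaging at least 50 counts and 74.7% of the 10065 genes averaging at least 100. The exceptions were Ifi35 and Isg20, with adjusted p = 0.865 and 0.304 in this chi-square test. Without replicate 1 the test called 38 of the 52, against 55.3% of genes. In bulk RNA, fewer responding cells and less RNA per cell cannot be told apart.

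In CPM, replicate 1 was the highest library for 39 of the 52 genes, against 29.8% of all genes tested. Earlier results of these data had already shown more of these genes in replicate 1, so this count is a description and was not tested. Replicate 2 was the highest for 10 of them, against 39.0%, and replicate 3 for 3, against 31.3%. For 34 of the 52 genes replicate 3 was the lowest, against 31.4% of all genes. The 3 genes highest in replicate 3 were Trim25, Lgals3bp and Ifi35. As a difference from a gene's own mean in log2 CPM, the median of the 52 was 0.21, -0.0013 and -0.20 in replicates 1, 2 and 3, against 0.0032, 0.0038 and 0.00057 for all genes tested. The difference was positive for 49 of the 52 genes in replicate 1, for 26 in replicate 2 and for 4 in replicate 3. Of all genes tested it was positive for 50.8%, 50.8% and 50.2%.

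The count of genes highest in replicate 1 depended in part on the scaling. On library totals, which move the median of all genes by 0.11 in replicate 2 and by -0.05 in each of replicates 1 and 3, 28 of the 52 genes were highest in replicate 1, 23 in replicate 2 and 1 in replicate 3, against 19.9%, 58.9% and 21.2% of all genes. Without replicate 3, 44 of the 52 genes were higher in replicate 1 than in replicate 2, against 49.2% of all genes.

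**Figure D3:**
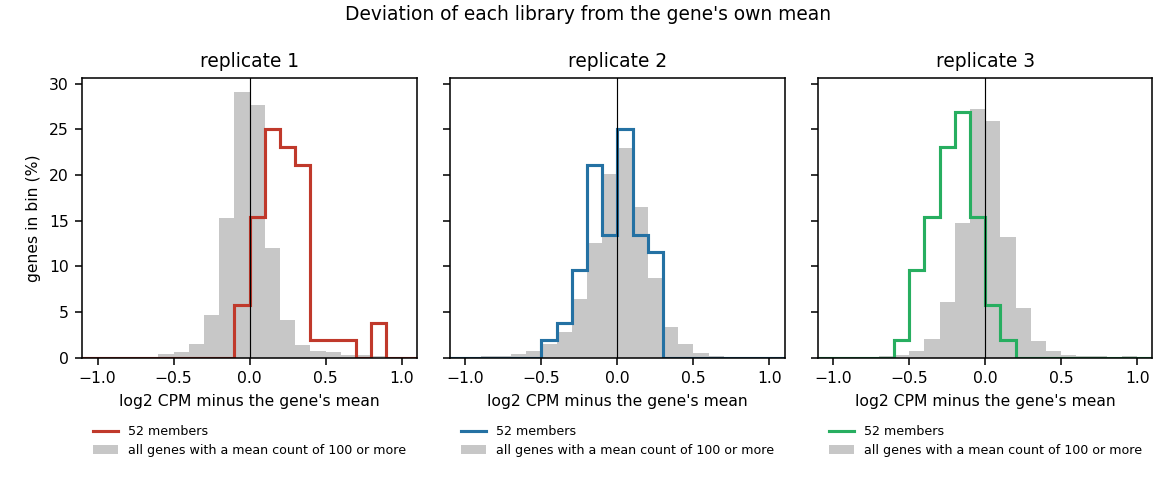
Percent of genes (y axis) by log2 CPM minus the gene's mean over the 3 libraries (x axis), in bins, for the 52 members (coloured outline) and for all genes averaging at least 100 counts (grey bars). The members' median is 0.21 in replicate 1 and -0.20 in replicate 3, while the grey bars are centred near 0 and reach past both values.

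Most of these differences were below 1.5-fold, in 37 of the 52 genes. Between the highest and lowest library the median ratio was 1.39-fold for the 52 genes, against 1.21-fold for all genes averaging at least 100 counts. At 1.5-fold or more lay 15 of the 52, against 26.8% of all genes tested and 13.4% of those averaging at least 100 counts. Only Ifi44, Ifi205 and Ifit1bl1 reached 2-fold, the last with 9.99 CPM in replicate 1, against 6.12 and 4.64 in replicates 2 and 3. Isg15 at 1.79-fold, Ifit2 at 1.75-fold, Phf11d, Oas3 and Ifitm3 followed. Ifit2 had 707, 527 and 404 CPM in replicates 1, 2 and 3. The narrowest were Ifi35 at 1.03-fold, Trim25 at 1.11-fold, Ifi204 at 1.19-fold and Samhd1 at 1.2-fold. As edgeR's tagwise biological coefficient of variation, the median was 15.4% for the members, against 17.3% for all genes tested and 14.4% for those averaging at least 100 counts, and members ranged from 11.7% for Trim25 to 33.6% for Ifi205.

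By role, the median log2 CPM difference in replicate 1 was positive in each of the 12 groups. It was 0.36 over the Mx genes, 0.31 over the genes outside the named families, 0.30 over the IFIT genes and 0.25 over the nucleotide and RNA enzymes. It was 0.24 over the oligoadenylate synthetases, 0.23 over the ISG15 system, 0.18 over the sensors and RNA-binding effectors, 0.18 over the PYHIN family and 0.17 over the Schlafens. The lowest medians were 0.15 over the membrane and secreted proteins, 0.13 over the ADP-ribosylation genes and 0.07 over the TRIM and Sp100 group, in which Sp100 and Trim21 were highest in replicate 2. Groups of 2 to 7 genes are small, these medians are a description, and differences between roles were not tested. With a response element core in the promoter window, 16 of 21 genes were highest in replicate 1, with a median difference of 0.23 and a median level of 29.1 TPM. Without the core these were 15 of 19 genes, 0.18 and 19.6 TPM.

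The genes of interferon induction and signalling gave the setting. Ifnb1, which encodes interferon beta, had 4, 6 and 5 counts in replicates 1, 2 and 3, or 0.16, 0.16 and 0.15 TPM. These are close to the 3 counts that an observed 0 still allows. The receptor genes Ifnar1 and Ifnar2 averaged 20.8 ± 3.48 and 50.6 ± 7.25 TPM. Stat2 and Irf9, which encode subunits of the complex that binds the response element, averaged 22.2 ± 4.12 and 15.4 ± 3.73 TPM. Of the 23 genes of this list, 21 had 1 TPM or more, and 22 had enough counts to test, of which the between-library test called 21, against the 66.8% of all genes given above. Replicate 1 was the highest for 14 of the 22, against 29.8% of all genes tested. Their median differences in log2 CPM were 0.08, -0.08 and -0.02 in replicates 1, 2 and 3. Irf1, a transcription factor that Lipid A signalling can raise directly, stood apart with 632 CPM in replicate 1, against 271 and 285 CPM in replicates 2 and 3. Irf7, itself an interferon-stimulated gene, had 214, 171 and 133 CPM. Socs1, a feedback inhibitor of the receptor kinases, had 0.50, 0.35 and 0.43 TPM.

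Guanylate-binding proteins and immunity-related GTPases, which interferons also raise and which attack vacuoles of intracellular microbes, were also mostly highest in replicate 1. The between-library test called all 13 of this list, against 66.8% of all genes tested, and 11 were highest in replicate 1, against 29.8%. Their median differences were 0.37, 0.02 and -0.43 in replicates 1, 2 and 3. Gbp5 had 82.5 CPM in replicate 1, against 31.7 and 26.1 CPM in replicates 2 and 3, a 3.16-fold range. The median range of this list was 1.71-fold.

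Markers of other cells also differed between the libraries. All 8 macrophage markers had 10 TPM or more in the mean, and their median differences were 0.06, -0.15 and 0.11 in replicates 1, 2 and 3. The 9 stromal markers summed to 259 CPM in replicate 1, against 0.276 and 1.1 CPM in replicates 2 and 3. All 8 that could be tested were highest there, led by the collagen genes. In each library every stromal marker lay below 10 TPM. Neutrophil markers summed to 8.08 CPM in replicate 1, against 17.8 and 19.8 CPM in replicates 2 and 3. Of the 6 markers of plasmacytoid dendritic cells, known as strong producers of interferon, only Tcf4 had more than 1 TPM, and Siglech averaged 0.257 TPM. Their sums were 151, 152 and 130 CPM, nearly all from Tcf4 with 148, 151 and 126 CPM. The other 3 that could be tested, Siglech, Ccr9 and Cox6a2, were highest in replicate 3. The 5 B cell markers summed to 2.09, 1.23 and 1.97 CPM. The 7 T and NK cell markers summed to 104, 105 and 113 CPM, nearly all from Cd4, with Cd3g and Gzma at 0 counts. The part of these cells in the high values of replicate 1 was not tested.

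**Figure D4:**
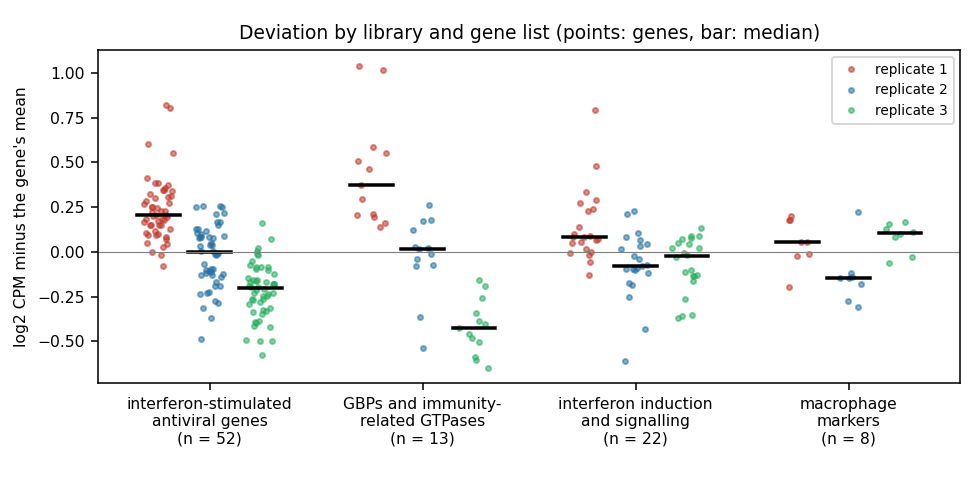
Log2 CPM minus the gene's mean over the 3 libraries (y axis) for the genes of 4 lists (x axis), with a point for each gene and a bar at the median, by library. The medians in replicate 1 are 0.21 for the interferon-stimulated genes, 0.37 for the GBPs and immunity-related GTPases, 0.08 for interferon induction and signalling and 0.06 for macrophage markers.

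Transcript tables show which forms of these genes the reads were assigned to. Of the 52 genes, 9 have a single annotated transcript and 43 have more. The same transcript led in both transcript tables for 38 of these 43, against 89.7% of nuclear protein-coding genes at 1 TPM or more. The 5 exceptions were Sp100, Adar, Ifih1, Mx1 and Oas1g. At least 90% of the TPM lay in protein-coding transcripts for 37 of the 52 genes in the first table and 36 in the second. For all nuclear protein-coding genes at 1 TPM or more these shares were 71.9% and 65.5%. TPM shares weigh short transcripts up, since a short transcript needs fewer reads for the same TPM.

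Mx1 was mostly assigned to transcripts annotated for nonsense-mediated decay, the pathway that removes messages with an early stop. Transcript Mx1-205 of that type held 51.7 ± 10.9% of the gene's TPM in the first table, and Mx1-203, of the same type, led the second with 30.2 ± 2.35%. The protein-coding Mx1-202 held 21.8 ± 4.54% and 13.9 ± 3.44% in the first and second tables. For Oasl2, the decay transcript Oasl2-205 held 62.4 ± 4.42% in the first table and 50.7 ± 3.84% in the second. Its open frame has 56 codons. The protein-coding Oasl2-201, with 508 codons, held 23.4 ± 4.52% and 27.3 ± 4.93%. By library, the share of Oasl2-205 in the second table was 46.7, 54.4 and 51.1% in replicates 1, 2 and 3.

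Zbp1 was split between 2 protein-coding transcripts in a ratio that both tables shared. Zbp1-202, with 187 codons, held 66.2 ± 1.33% and 66.6 ± 1.21% of the TPM in the first and second tables, and Zbp1-201, with 411 codons, 32.8 ± 2.08% and 32.2 ± 2.15%. Per read the order was the other way round, with 37.1 ± 1.43% of counts for Zbp1-202 and 59.5 ± 3.83% for Zbp1-201. For Adar the tables differed. Adar-203, with 1178 codons, held 51.9 ± 5.95% in the first table and 34.8 ± 6.66% in the second, while Adar-201, with 1152 codons, held 16.7 ± 11.9% and 46.0 ± 8.78%. Adar-202, with 930 codons, held 10.8 ± 2.97% and 12.5 ± 2.42%. For Ifih1, Ifih1-201 led the first table with 63.5 ± 4.16%, and Ifih1-202 the second with 48.4 ± 5.68%.

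Retained-intron transcripts held 10% or more of the TPM in 7 of the 52 genes in each table, against 11.0% and 13.3% of nuclear protein-coding genes at 1 TPM or more. Samhd1 had the highest share, 38.4 ± 6.61% in the first table and 34.2 ± 5.48% in the second. Its retained-intron transcript Samhd1-210 alone held 24.3 ± 8.50% of TPM, but 5.69 ± 2.46% of counts, and the full-length Samhd1-201 held 69.7 ± 5.67% of counts.

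**Figure D5:**
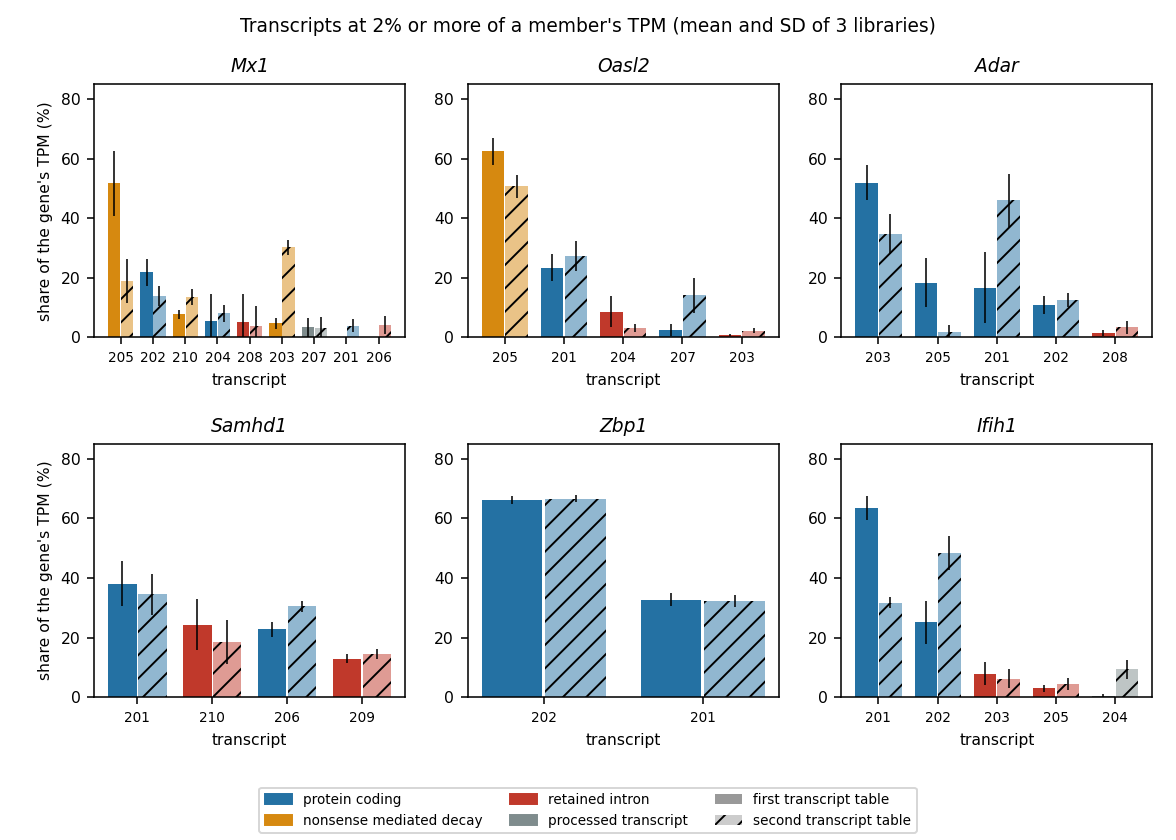
Share of a gene's TPM (y axis, percent; bars are means and lines SDs of 3 libraries) in each transcript with 2% or more (x axis, transcript number) for 6 genes, in the first transcript table (full colour) and the second (hatched), coloured by transcript type. The decay transcript 205 leads Oasl2 in both tables, at 62.4% and 50.7%.

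Gene levels were close between the tables once each was rescaled to the same total over nuclear protein-coding genes. The median log2 ratio of the second transcript table to the gene table was -0.03 over the 52 genes, and all 52 lay within 0.5 log2 units, against 97.3% of nuclear protein-coding genes at 1 TPM or more. As deposited, TPM of the second table was 0.445 times that of the gene table in the median. The genes that differed most were Lgals3bp with a log2 ratio of -0.37, Ifi205 with 0.31, Mx2 with 0.29, Ifih1 with 0.27 and Mx1 with 0.27. Each of the 5 had the same sign in all 3 libraries. The posterior SD was below 1% of the count for 49 of the 52 genes, and Herc6 followed the 3 exceptions and Oas1a with 0.232%.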

How the data were processed

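Cytosolic total RNA of 3 libraries was quantified by the authors in a gene table, a first transcript table of the same layout and a second transcript table from another quantifier, on mm10 with GENCODE M21, per the deposited readme files. Which tools and versions made them, and whether strand was used, is not given in the sources used here. Expected counts, as deposited, are the authors' estimates of reads for each feature, in which ambiguous reads were divided among features. TPM values, as deposited, were divided by effective length and scaled by the authors to a fixed total over all rows, so abundant short RNAs lower them. A deposited column of posterior SD gives the estimator's uncertainty of each count.

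Summed over genes, replicates 1, 2 and 3 held 23403552, 50435201 and 35785896 expected counts. A count of 0, which allows 3 counts, stands for 0.128, 0.0595 and 0.0838 CPM. Without molecular identifiers, intervals and limits speak of counting error alone. Counts were rounded and scaled with TMM factors (edgeR 4.0.16, R 4.3.3). Each gene with a mean count of at least 10 was tested between libraries by its index of dispersion, compared with Poisson sampling through a chi-square test. Adjustment was by Benjamini-Hochberg over 13237 genes, with a threshold of 0.05. On simulated counts for those genes this test called 50% of genes changed 1.2-fold in 1 library, 76% at 1.5-fold and 90% at 2-fold, and 0.069% of unchanged genes. The simulated counts followed Poisson sampling, which the test assumes, so these rates do not cover spread beyond counting error. The changed genes were drawn from all genes tested, so the rates are not those of the members. Differences from a gene's mean used log2 CPM with a prior count of 0.5. With 1 group, no differential expression could be tested.

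Of 81881 rows in a gene table, 55536 name annotated genes, and the rest, which name tRNAs, spike-ins or phiX174, were left out. Mb21d1 was found as Cgas through RefSeq synonyms. The promoter sequences are from RefSeq. For 42 of 50 member windows the last bases were found somewhere within a GENCODE transcript of the same gene. This checks the strand of the windows, and does not compare RefSeq starts with GENCODE starts. Alternatives were other scalings (DESeq2 1.42.0, library totals), filters, pseudocounts, the second transcript table and leaving out each library. Python 3.11.15, pandas 2.3.3, scipy 1.17.1 and matplotlib 3.10.9 did the rest. The members, the other gene lists and the tests were chosen with earlier results of these data known. Values in every library are given for the 10 highest and 5 lowest members, the highest and lowest of each role group, the 8 widest and 4 narrowest between libraries, and the 5 that differed most between tables or in posterior SD. The other members are given by mean or range. The values of some genes of the other lists are not reported here.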

Additional observations from a re-analysis of the deposited data

How the results depend on the processing

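No paired analysis was possible because there is 1 group of libraries and no second group to pair with it. The median level of the members, 4.61 as log2(TPM + 1), was 6.48 when TPM was rescaled over nuclear protein-coding genes and 3.34 in the second transcript table, and 4.43 to 4.80 when each library was left out in turn. On its scale, 51 of 52 genes reached 1 TPM, the exception being Ifit1bl1 at 0.844 TPM. The count called by the between-library test was 50 under both other scalings, both other filters and the second table, and 38 to 49 when each library was left out, against 46.0 to 73.1% and 33.1 to 55.3% of all genes. The count highest in replicate 1 was 28 to 42 over scalings, filters and tables, and 44 to 49 with 2 libraries, against 19.9 to 31.8% and 49.2 to 49.7% of all genes. The median difference in replicate 1 was 0.15 to 0.24 over those settings, a larger prior count and the mean in place of the median. The value for all genes moved as well. On library totals the members had 0.15, against -0.051 for all genes. Without the low-count filter they had 0.19, against 0.039, and as a mean 0.24, against 0.065. With 2 libraries, where a gene's mean is over those 2, the members' median was 0.12 to 0.20. The same leading transcript was found for 37 to 38 genes without each library, and for 35 of 40 genes at 5 TPM or more. Leaving out a library moved the mean TPM of a member by a factor of at most 1.33. The median coefficient of variation was 16.7% from DESeq2's gene-wise dispersions, against 10.2% for all genes, and 14.6% from its shrunken ones, against 15.6%. The lowest mean count of a member is 132, so that low counts limit few of these values, and the number of libraries, 3, limits all of them.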
